A study of Mus musculus with 24 samples.

Results

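Transcription of 10 genes of the BCL2 family was examined in cultured primary osteoblasts (OBs), selected by gene symbol from the 55335 genes of each count file. The genes were the survival members *Bcl2*, *Bcl2l1* (BCL-XL) and *Mcl1*, the effectors *Bax* and *Bak1*, and the BH3-only genes *Pmaip1* (NOXA), *Bbc3* (PUMA), *Bcl2l11* (BIM), *Bid* and *Bad*. Each symbol had 1 entry, and all 10 genes passed the filter on low counts in every comparison. The cells came from parietal bones of mouse pups, 4 to 5 days old, on the C57BL/6J background that were wild type (WT) or heterozygous (Het) for G610C, a Gly to Cys substitution in the triple helix of the type I procollagen chain encoded by *Col1a2*. Both genotypes received medium with ascorbic acid 2-phosphate (labelled treatment, osteogenic differentiation), and polyadenylated RNA was sequenced 8, 14 and 21 days after seeding from 4 libraries per genotype and day, 24 in all. Within a genotype, cells of several pups were combined before plating, so wells are not animals, and the p-values below cover the spread between libraries only. The study ran a pair of experiments on different litters, which differed in plating density and in oxygen during expansion. The labels do not say which replicates belong to which. The paper describes fewer wells per genotype and day than the 4 libraries here, and the labels do not explain the difference. The question behind the comparison was how OBs respond to procollagen that misfolds in the endoplasmic reticulum (ER).

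The BCL2 family controls the permeability of the outer mitochondrial membrane. BAX and BAK1 form pores through which cytochrome c leaves the mitochondria, survival members bind and hold them, and BH3-only proteins either occupy the groove of the survival members or activate BAX and BAK1 directly. Much of this control acts on the proteins through phosphorylation, cleavage and degradation, which mRNA counts do not measure. Cells with a stressed ER are known to raise some BH3-only genes through the transcription factors ATF4 and CHOP (*Ddit3*), and p53 controls *Bbc3*, *Pmaip1* and *Bax*.

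Promoter sequences are shown for *Bcl2* and *Mcl1*, the survival genes that passed the test between genotypes below. *Bcl2* passed at day 8 and *Mcl1* at days 14 and 21 together, and neither passed in every alternative fit. RefSeq entries for GRCm38.p6 covered 9 of the 10 genes with 15 start sites. Each line gives the 250 bases before the start, 5′ to 3′ on the strand of the gene, with GC boxes (GGGCGG on either strand) in capitals.
*Bcl2*, chr1:106714291-106714540, minus strand: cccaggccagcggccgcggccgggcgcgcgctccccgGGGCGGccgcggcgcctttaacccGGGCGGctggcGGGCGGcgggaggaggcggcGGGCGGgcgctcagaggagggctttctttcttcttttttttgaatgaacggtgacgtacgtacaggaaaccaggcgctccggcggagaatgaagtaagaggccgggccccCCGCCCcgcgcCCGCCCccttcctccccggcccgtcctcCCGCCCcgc
*Mcl1*, chr3:95658471-95658720, plus strand: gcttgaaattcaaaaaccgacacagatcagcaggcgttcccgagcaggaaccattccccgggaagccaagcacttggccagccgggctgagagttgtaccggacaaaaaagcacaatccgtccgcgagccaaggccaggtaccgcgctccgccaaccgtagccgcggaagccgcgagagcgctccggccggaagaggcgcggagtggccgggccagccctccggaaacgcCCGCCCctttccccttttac
The *Bcl2* window held 7 GC boxes and the *Mcl1* window 1. A GC box was present in 10 of the 15 member windows, compared with 32.7% of all 32851 promoter windows of this length. The CCAAT box (CCAAT on either strand) was present in 4 of 15, compared with 33.8% of all windows. Neither TGATGCAA, the C/EBP-ATF response element bound by ATF4 and CHOP, nor the cyclic AMP response element TGACGTCA was found on either strand in any of the 15, and they were present in 0.791% and 1.55% of all windows. *Pmaip1* had no window and was not searched. The 1 window of *Bak1* lies wholly in exon sequence, as do the *Bcl2l1* windows that start at 152828490 and 152830718. Exon sequence also made up 230 bases of the *Bad* window that starts at 6942312 and 29 bases of the *Bid* window. Windows of one gene can overlap each other, and sequence outside the windows was not searched.

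Levels were expressed relative to the geometric mean count of the housekeeping genes *Actg1*, *Actb*, *Mrfap1* and *Sdha*, and are given as counts per 1000 housekeeping counts. To compare one gene with another, this level was divided by exon length in kb. On that per-length scale, the effector *Bax* had the highest mean at day 8 (132 ± 20.7, SD, n = 8 libraries of both genotypes), above every library of *Mcl1* (60.0 ± 2.31) and *Bak1* (58.0 ± 4.62), which overlapped each other. *Bad*, a BH3-only protein held inactive by growth factor signals, followed at 36.1 ± 2.29, apart from its neighbours on both sides. *Bcl2l1* (13.2 ± 2.60), *Bbc3* (10.5 ± 0.877), *Bid* (7.59 ± 1.43), *Pmaip1* (7.07 ± 2.04) and *Bcl2l11* (3.11 ± 0.992) formed a series in which each overlapped the next. *Bcl2* was lowest at 1.03 ± 0.306, below every library of *Bcl2l11*. Among the 3 survival genes, *Mcl1* thus had the highest level per length and *Bcl2*, which gives the family its name, the lowest.

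**Figure D1:**
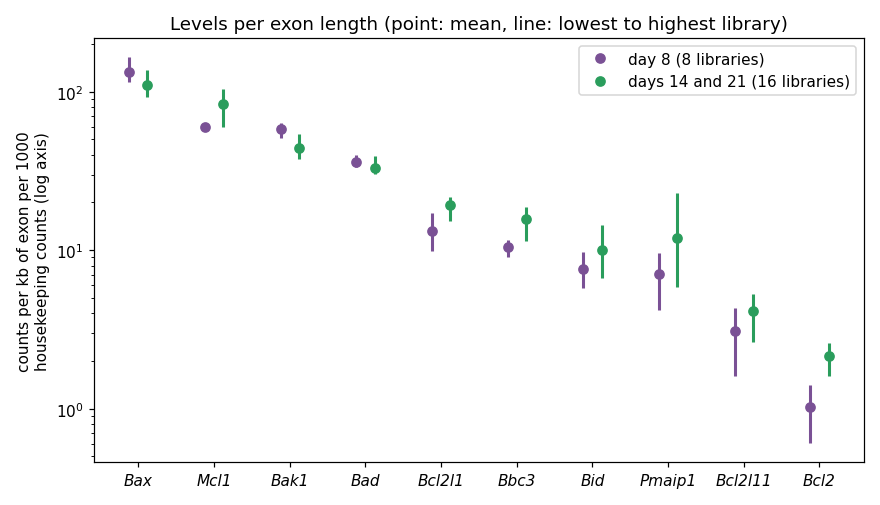
Levels of the 10 genes per kb of exon, on a log axis, at day 8 (8 libraries) and at days 14 and 21 (16 libraries), with both genotypes pooled. Points are means and lines span the lowest to the highest library. *Bax* lies highest at 132 and 109, and *Bcl2* lowest at 1.03 and 2.15.

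At days 14 and 21 the order was the same from *Bax* (109 ± 12.9, n = 16) through *Mcl1* (83.3 ± 12.5), *Bak1* (43.9 ± 4.98), *Bad* (33.0 ± 2.89), *Bcl2l1* (19.2 ± 2.07) and *Bbc3* (15.6 ± 1.79), except that *Pmaip1* (11.9 ± 5.10) stood before *Bid* (10.01 ± 1.88). *Bax* and *Mcl1* overlapped at these days, as did *Bak1* and *Bad*, *Bcl2l1* and *Bbc3*, *Bbc3* and *Pmaip1*, and *Pmaip1* and *Bid*. *Mcl1* stood apart from *Bak1*, *Bad* from *Bcl2l1*, *Bid* from *Bcl2l11* (4.14 ± 0.752), and *Bcl2l11* from *Bcl2* (2.15 ± 0.341).

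Library totals ranged from 17140202 to 59734231 counts. Replicate 1 of every group was shallower (17140202 to 25825762) than replicates 2 to 4 (28159342 to 59734231), and its values are given apart below because several genes differ there. The OB markers *Col1a1*, *Runx2*, *Sp7*, *Ibsp* and *Alpl* were present in every library. Their summed level was 9587 to 26524 CPM (counts scaled to the library total) in WT and 10028 to 23532 in Het at day 8, 44876 to 83727 and 49165 to 60316 at day 14, and 73348 to 83176 and 56770 to 71736 at day 21, where Het was lower with no overlap. At days 14 and 21, 1 of these 5 markers was called lower in Het and 4 had an unadjusted p under 0.05, with a median log2 fold change of -0.39, and their part in the differences between genotypes was not tested. The summed level of 10 macrophage markers was 210 to 579 CPM in Het against 129 to 251 in WT at day 8, 1495 to 3276 against 616 to 1904 at day 14, and 3209 to 8432 against 2566 to 3030 at day 21, so the genotypes were apart at day 21 and overlapped before. The summed level of 7 mature OB and osteocyte markers was lower in Het at day 21 (569 to 897 against 1260 to 1521 CPM) and overlapped at day 8 (11.7 to 12.3 against 12.2 to 56.3), where *Dmp1* and *Ifitm5* were called lower, and at day 14 (408 to 895 against 440 to 1060). No gene of either list was at 0 in a whole group. The summed level of 6 chondrocyte markers had a median of 7173 CPM in Het and 13164 in WT at day 8, 1210 and 4904 at day 14, and 1076 and 3565 at day 21, with overlapping ranges on each day. Of the 6, 1 was called lower in Het at days 14 and 21, with a list median of -0.77 on the log2 scale. Endothelial markers summed to 0.715 to 2.65 CPM. In such mixed cultures, fewer cells of a type and less RNA per cell cannot be told apart.

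Het and WT cultures were compared first at days 14 and 21 together. *Pmaip1*, *Bak1* and *Mcl1* were higher in Het, and the other 7 genes did not pass the test. *Pmaip1* showed the largest difference of the 10, with a mean level of 39.96 ± 14.9 counts per 1000 housekeeping counts in 8 Het libraries and 25.3 ± 8.48 in 8 WT libraries (± SD). With edgeR's quasi-likelihood test and Benjamini-Hochberg adjustment over all genes, 3 of the 10 genes were called higher and 0 lower at adjusted p under 0.05, compared with 7.15% of all 20434 genes tested called higher, 8.01% lower and 15.2% in either direction. With TMM scaling in place of the housekeeping genes, the calls over all genes split into 2473 higher and 1514 lower rather than 1461 and 1637, and 5 of the 10 genes were called higher. With the replicate number as a block, 2084 genes were called higher and 2921 lower, and *Bid* was called as well. The median log2 fold change was 0.14 over the 10 genes and -0.05 over all genes tested. With total count scaling these medians were 0.24 and 0.04. The housekeeping geometric mean itself was 477 to 517 CPM in Het and 446 to 471 in WT at day 14, with no overlap. It was 544 to 629 and 550 to 576 at day 8, and 428 to 501 and 436 to 463 at day 21, with overlap.

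**Figure D2:**
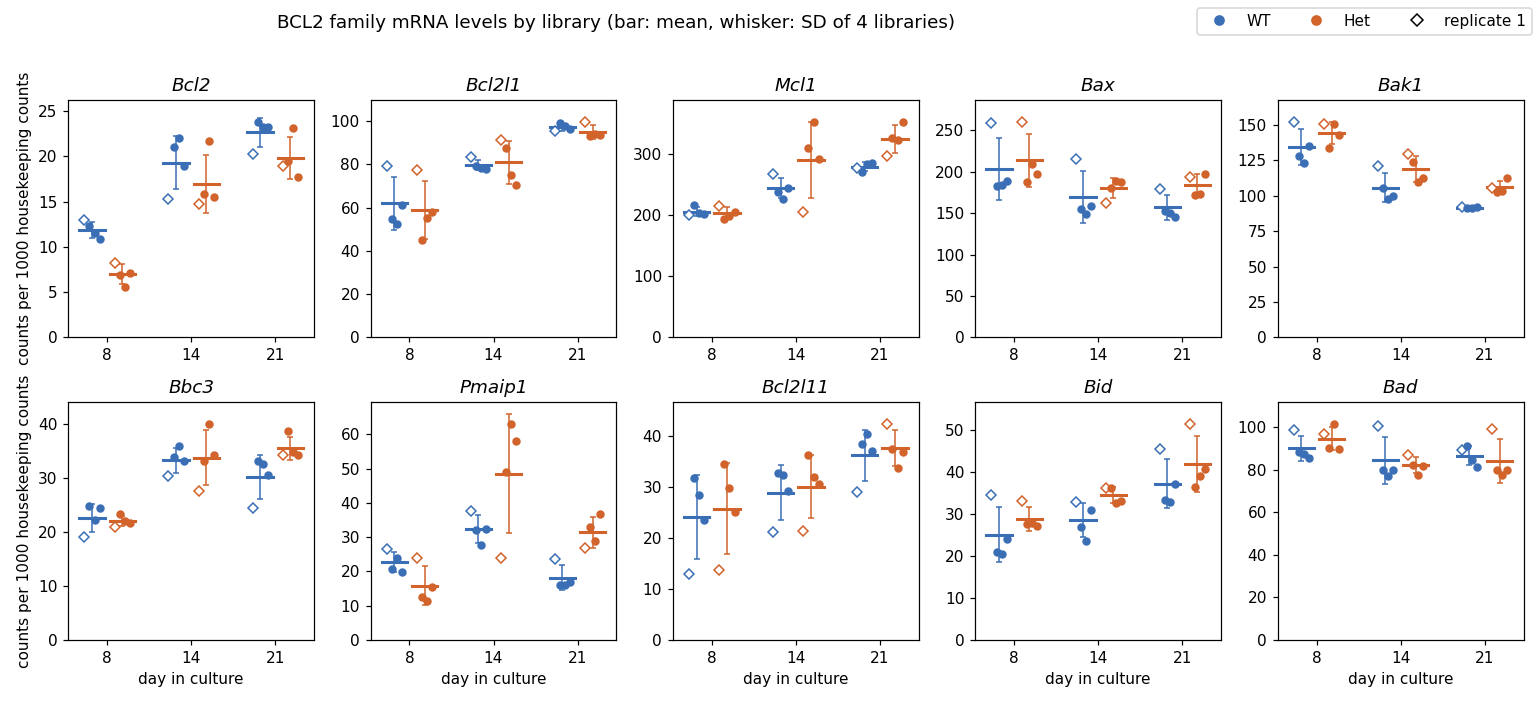
Counts per 1000 housekeeping counts of each gene in all 24 libraries, by day in culture (x axis) and genotype (color). Horizontal bars are means and whiskers SDs of 4 libraries, and open diamonds mark replicate 1. At day 8 the 4 Het libraries of *Bcl2* lie between 5.56 and 8.25, below all WT libraries.

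*Pmaip1* (chromosome 18, 66458533 to 66465565, plus strand, GRCm38) encodes NOXA, a BH3-only protein that binds MCL1 and promotes its degradation. At day 14 its level in replicates 1 to 4 was 24.03, 49.1, 63.0 and 58.0 in Het against 37.7, 32.1, 27.8 and 32.2 in WT. At day 21 it was 26.8, 33.1, 28.9 and 36.8 in Het against 23.5, 16.005, 15.98 and 16.9 in WT. Het libraries were above all WT libraries at day 21, but at day 14 replicate 1 of Het was the lowest of the 8 libraries. The log2 fold change over both days was 0.70 with a standard error (SE) of 0.167 (edgeR adjusted p = 0.00915). The call held without any single library, with an adjusted p of 0.000475 to 0.0250. The ratio of means was 1.58, and it was 0.830 in replicate 1 and 1.91 in replicates 2 to 4, so over both days the direction differed between replicate 1 and the other replicates.

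*Bak1* (chromosome 17, 27019810 to 27029009, minus strand) differed less. At day 14, Het libraries held 130, 124, 110 and 113 counts per 1000 housekeeping counts and WT libraries 121, 105, 97.6 and 99.6. At day 21 the 4 Het values (105, 103, 104 and 113) all lay above the 4 WT values (92.3, 91.1, 91.3 and 92.1), which varied little. Het was above WT of the same replicate number in all 8 pairs. The log2 fold change was 0.19 (SE 0.0523, edgeR adjusted p = 0.0184) and the ratio 1.14, with 1.103 in replicate 1 and 1.15 in replicates 2 to 4. An exon of *Bak1* overlaps *Ggnbp1* on the other strand, and since the strand rule of the counting is not given in the sources used here, reads of the pair cannot be told apart there.

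*Mcl1* (chromosome 3, 95658788 to 95663176, plus strand), a survival gene whose mRNA and protein both turn over fast, was the third. Its day 14 levels were 205, 310, 353 and 292 in Het against 268, 239, 227 and 245 in WT, and its day 21 levels were 297, 326, 323 and 352 against 278, 271, 284 and 286. As with *Pmaip1*, the groups were apart at day 21 and replicate 1 of Het was the lowest library at day 14. The log2 fold change was 0.23 (SE 0.0740, edgeR adjusted p = 0.0388), and the ratio of 1.17 was 0.921 in replicate 1 and 1.26 in replicates 2 to 4. The call was lost in 13 of the 16 fits that left out a single library (adjusted p up to 0.0901). It was kept only without replicate 1 of WT at day 14 or of Het at day 14 or 21.

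**Figure D3:**
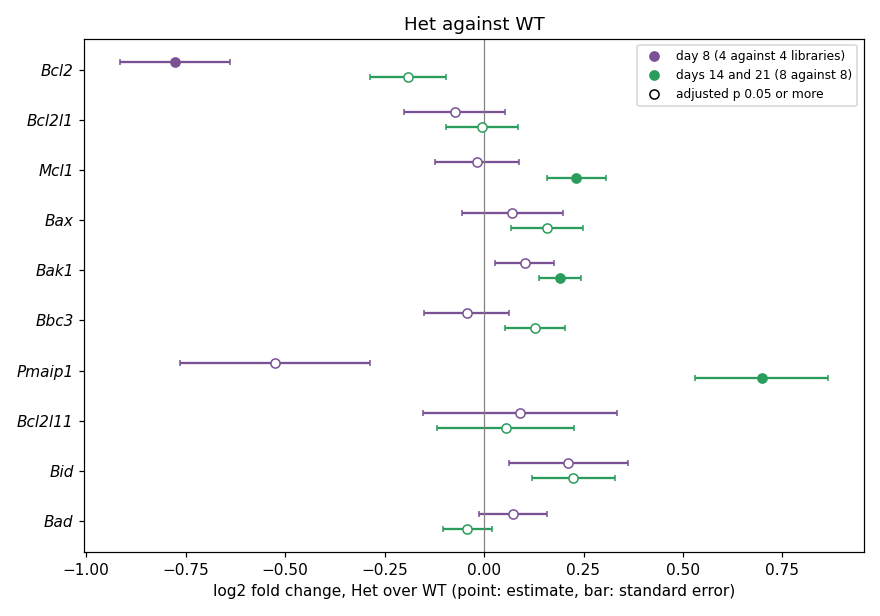
Log2 fold change of Het over WT (x axis) for the 10 genes at day 8 and at days 14 and 21, with bars of 1 SE and open symbols for an adjusted p of 0.05 or more. *Bcl2* at day 8 (-0.78) and *Pmaip1* (0.70), *Mcl1* (0.23) and *Bak1* (0.19) at days 14 and 21 are the filled points.

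The remaining effector *Bax* and the BH3-only gene *Bid*, which links death receptors to mitochondria through cleavage by caspase 8, did not pass. *Bid* was 1.16 times WT, with Het higher in 8 of 8 pairs, but its edgeR adjusted p was 0.154, and 0.0117 with the replicate block. *Bax* was 1.11 times WT (adjusted p = 0.245), and its ratio was 0.902 in replicate 1 and 1.21 in replicates 2 to 4. Both were called higher with TMM scaling, at adjusted p of 0.0233 for *Bid* and 0.0237 for *Bax*. Without replicate 1, 5 genes were called higher, *Pmaip1*, *Mcl1*, *Bax*, *Bak1* and *Bid*, in a fit that called 41.9% of all genes. Without replicate 2, 3 or 4, none of the 10 was called by edgeR, while 2, 3 and 3 of them had an unadjusted p under 0.05. Calls over all genes also moved, from 86 to 8236 across the fits without a replicate number, with 8236 in the fit without replicate 1.

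Among the other genes, *Bcl2* fell short of the edgeR test with a log2 fold change of -0.19 (SE 0.0954, adjusted p = 0.185). On the housekeeping scale, Het was below WT of the same replicate number in each of the 8 pairs. *Bbc3*, the BH3-only gene most closely tied to p53, was at 0.13 (SE 0.0754, adjusted p = 0.268). *Bcl2l11*, a FOXO target that activates BAX directly, was at 0.05 (SE 0.172, adjusted p = 0.889). *Bad* was at -0.04 (SE 0.0605) and *Bcl2l1* at -0.0050 (SE 0.0898), with adjusted p of 0.711 and 0.984, and both signs were positive with TMM and total counts, uncalled. Of these 5 genes *Bcl2l11* had the widest error, and its replicate 1 was the lowest library in 5 of 6 groups and the highest in the remaining one.

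Taken separately, neither day gave a call among the 10 genes by edgeR, with 3 of 10 at an unadjusted p under 0.05 on each day (*Pmaip1*, *Mcl1* and *Bak1* at day 14, and *Pmaip1*, *Bak1* and *Bbc3* at day 21). The share of all genes called was 3.45% at day 14 and 0.91% at day 21. At day 21, the 4 Het and 4 WT libraries did not overlap for *Pmaip1*, *Mcl1*, *Bak1* and *Bbc3*, which is 4 of 10 genes compared with 12.5% of the 18346 genes examined (mean of 10 counts or more). At day 14, 0 of 10 were apart, compared with 11.1%. For *Bbc3* at day 21, the levels were 34.3, 38.8, 34.9 and 34.3 in Het against 24.4, 33.3, 32.6 and 30.6 in WT.

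At day 8, 1 member differed between genotypes, *Bcl2* (chromosome 1, 106538178 to 106714274, minus strand), which holds BAX and BAK1 in check and also binds calcium channels of the ER. Its level was 8.25, 6.95, 5.56 and 7.07 in Het against 12.9, 12.3, 11.5 and 10.9 in WT, with no overlap. The means (± SD of 4 libraries) were 6.96 ± 1.104 and 11.9 ± 0.895, and Het was 0.585 times WT, 0.638 times in replicate 1 and 0.565 times in replicates 2 to 4. The log2 fold change was -0.78 (SE 0.138, edgeR adjusted p = 0.0150), and a two-sided exact permutation test of the 4 against 4 libraries gave p = 0.0286, the smallest it can give. Thus 1 of the 10 genes was called, compared with 0.313% of all genes called lower, 0.318% higher and 0.631% in either direction. Non-overlapping libraries were seen in 1 of 10 members and in 4.89% of the genes examined. Counts behind these values were 116 to 219 in Het and 151 to 336 in WT.

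On the housekeeping scale, Het *Bcl2* was below WT of the same replicate number in all 12 pairs over the 3 days. It was the only one of the 10 genes with a single direction throughout, and the share of all genes that do so was not counted. Scaled to library totals, not every pair kept this direction. Replicate 1 at day 14 held 130 *Bcl2* counts of 17140202 in Het and 168 of 24549897 in WT. At day 8 the call was lost in the fit of the day 8 libraries alone (adjusted p = 0.168), which called 0 of all genes. It was also lost without replicate 2 or 3 of WT or replicate 2, 3 or 4 of Het at that day, where the adjusted p reached 0.0760 at most. Without replicate number 2, 3 or 4 in every group it was lost as well, at adjusted p of 0.599, 0.190 and 0.413, and without number 1 it was kept (0.000653). Calls over all genes were 0 to 3405 across the fits without a replicate number, with 3405 in the fit without replicate 1. They were 11 to 969 across the fits without a single day 8 library. Over all 8 fits without a single day 8 library, the log2 fold change lay between -0.86 and -0.68. An exon of *Bcl2* overlaps *D630008O14Rik* on the other strand. Of the mature OB markers, 2 of 7 were called lower in Het at day 8, and 3 of 10 macrophage markers higher; their part in the *Bcl2* difference was not tested. With the replicate block, 315 genes were called at day 8 in place of 129, and *Bcl2* remained the called member (adjusted p = 0.0115).

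The other 9 genes did not pass the test at day 8. *Pmaip1*, which was higher at the later days, had lower values in Het, at 23.98, 12.6, 11.4 and 15.6 against 26.4, 20.8, 23.8 and 19.9. Het was below WT in 4 of 4 pairs, yet replicate 1 of Het lay among the WT libraries. The log2 fold change was -0.53 (SE 0.238, edgeR adjusted p = 0.456). Of the fits that left out libraries, it was called in the one without replicate 1 (adjusted p = 0.000979), in a fit that called 17.3% of all genes and that also called *Bid* higher. *Mcl1*, at 216, 194, 199 and 205 in Het against 201, 217, 204 and 203 in WT, had a log2 fold change of -0.02 (SE 0.105). For *Bak1*, *Bax* and *Bid* the estimates were 0.10, 0.07 and 0.21, with adjusted p of 0.724, 0.936 and 0.709.

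Whether the Het effect itself changed with time was tested as the difference between the effect at days 14 and 21 and that at day 8. No member passed edgeR's test (0 of 10, with 2 of 10 at an unadjusted p under 0.05, compared with 0.171% of all genes called). The 2 were *Pmaip1*, at a difference in log2 fold change of 1.22 (SE 0.292, adjusted p = 0.148), and *Bcl2*, at 0.59 (SE 0.168, adjusted p = 0.336). DESeq2 called *Pmaip1* (adjusted p = 0.00383). Without replicate 1, edgeR called *Pmaip1*, *Mcl1* and *Bcl2*, at adjusted p of 4.53e-06, 0.00768 and 0.0401, in a fit that called 4.72% of all genes. With edgeR on all 24 libraries, the Het effect was thus not shown to differ between days for any member, and with DESeq2 it was for *Pmaip1* only.

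The counts of *Bax* and *Bcl2* within one library give a ratio of an effector to a survival gene that needs no scale. At day 8 it was 27.0 to 37.6 *Bax* counts per *Bcl2* count in Het and 14.9 to 19.99 in WT, with no overlap. At day 14 the ranges overlapped (8.68 to 12.1 in Het and 6.78 to 14.0 in WT), as they did at day 21 (7.48 to 11.1 and 6.25 to 8.86). Within each genotype, every library of the later days had a lower ratio than every library of day 8. For the BH3-only genes set against *Mcl1*, all ranges of Het and WT overlapped. *Bcl2l11* per *Mcl1* count was 0.0903 to 0.143 in Het and 0.0788 to 0.143 in WT at days 14 and 21, and *Bbc3* per *Mcl1* count 0.0976 to 0.134 and 0.0878 to 0.158. *Bax* shares exon sequence with *Gm45808* on the same strand.

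**Figure D4:**
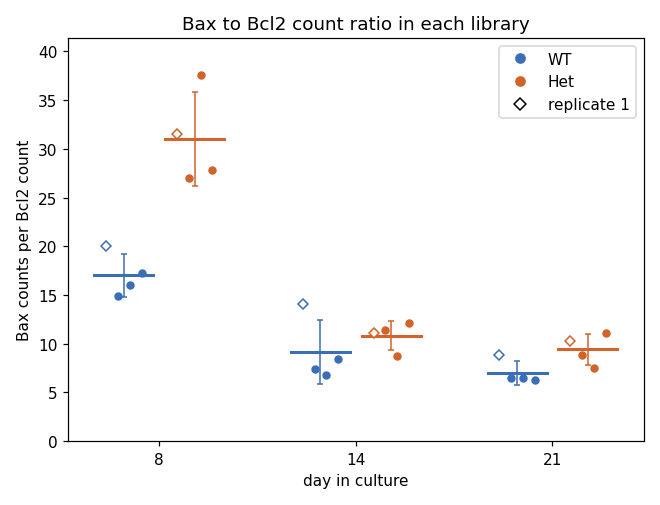
*Bax* counts per *Bcl2* count in each library, by day in culture (x axis) and genotype (color), with means (bars), SDs of 4 libraries (whiskers) and replicate 1 as open diamonds. The 4 Het libraries at day 8 lie at 27.0 to 37.6, above the 4 WT libraries at 14.9 to 19.99.

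More members differed with time in culture than with genotype, as did more of all genes (58.3% against 15.2% at days 14 and 21). The time comparison set 16 libraries against 8, and the genotype comparison at the later days 8 against 8. Between day 8 and days 14 and 21, all 3 survival genes and 4 of the 5 BH3-only genes rose, while both effectors and *Bad* fell. All 10 genes passed edgeR's test, 7 higher and 3 lower, compared with 40.9% of all genes higher, 17.4% lower and 58.3% in either direction. The scale matters here: the median log2 fold change over all genes was 0.16 with the housekeeping scale, 0.01 with TMM and -0.14 with total counts, and the share of calls that were higher moved from 70.1% to 50.2% and 33.0%. Of the 10 directions, none turned with TMM or total counts, but the call of *Bcl2l11* was lost with both (adjusted p = 0.262 and 0.689) and that of *Bid* with total counts (0.337). Over both genotypes, the housekeeping geometric mean was 544 to 629 CPM at day 8 and 428 to 517 CPM later.

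*Bcl2* rose most, from 5.56 to 12.9 at day 8 to 14.7 to 23.8 at days 14 and 21, with no overlap between 8 and 16 libraries, as in 15% of the genes examined. Its log2 fold change was 1.11 (SE 0.0875, edgeR adjusted p = 4.99e-10). *Bcl2l1* rose by 0.54 (SE 0.0796) and *Mcl1* by 0.47 (SE 0.0653) on the same log2 scale. Among the BH3-only genes, *Pmaip1* rose by 0.70 (SE 0.149), *Bbc3* by 0.57 (SE 0.0669), *Bcl2l11* by 0.40 (SE 0.151) and *Bid* by 0.39 (SE 0.0924). *Bak1* fell by 0.41 (SE 0.0445, edgeR adjusted p = 7.80e-08) and *Bax* fell by 0.27 (SE 0.0768, adjusted p = 0.00410). *Bad* fell by 0.13 (SE 0.0520, adjusted p = 0.0347), a call that was lost in the scale without *Sdha* and with no filter on low counts (adjusted p = 0.134 and 0.0602). *Bad* was also not called without replicate 2, 3 or 4, nor *Bcl2l11* without replicate 3 or 4. Summed levels of 12 cell cycle markers fell over the same time, from 1314 to 1791 CPM at day 8 to 518 to 767 CPM at day 21, and their part in these changes was not tested.

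Within each genotype the pattern was similar for most genes. *Bcl2* rose by 0.82 in WT (SE 0.121) and 1.40 in Het (SE 0.126), from a lower start in Het. *Pmaip1* rose by 1.31 in Het (SE 0.217, edgeR adjusted p = 3.72e-05), while in WT the change was 0.09 (SE 0.206, adjusted p = 0.762). WT levels were 19.9 to 26.4 at day 8, 27.8 to 37.7 at day 14 and 15.98 to 23.5 at day 21. The WT change thus averages a higher mean at day 14 and a lower one at day 21. In Het, the ratio of the later days to day 8 was 1.06 in replicate 1 and 3.40 in replicates 2 to 4. *Bbc3*, *Mcl1* and *Bcl2l1* rose by 0.66, 0.59 and 0.58 in Het and by 0.48, 0.34 and 0.51 in WT. The difference of these changes between genotypes is the same contrast as the interaction above, in which no member passed with edgeR and *Pmaip1* passed with DESeq2. *Bcl2l11* was called in neither genotype alone, *Bax* in WT alone and *Bad* in Het alone, and 7 and 8 of the 10 were called in WT and Het, compared with 45% and 45.4% of all genes.

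**Figure D5:**
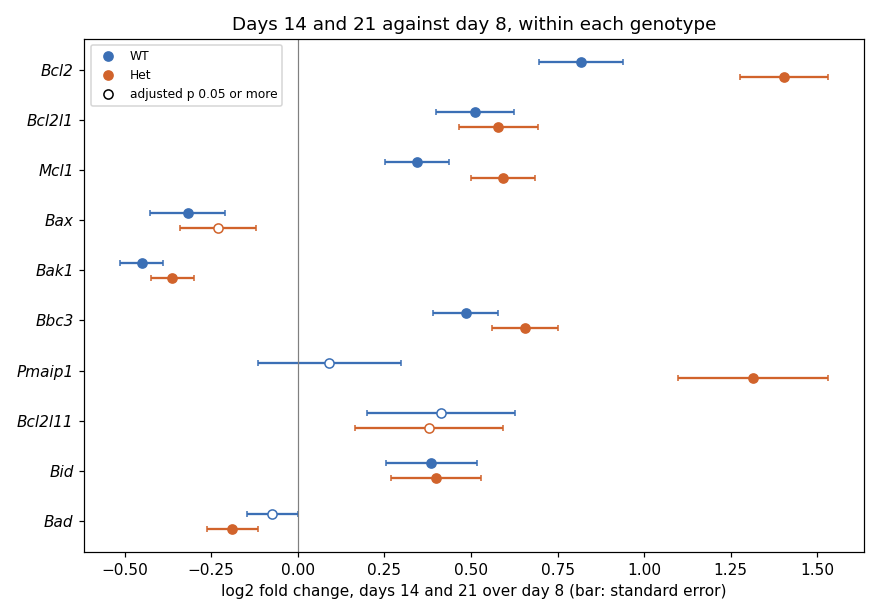
Log2 fold change of days 14 and 21 over day 8 (x axis) in WT and in Het, with bars of 1 SE and open symbols for an adjusted p of 0.05 or more. *Pmaip1* lies at 0.09 in WT and 1.31 in Het, and *Bak1* lies below 0 in both genotypes.

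From day 14 to day 21, *Pmaip1* and *Bak1* fell and *Bid* and *Bcl2l1* rose. These 4 of 10 genes were called, 2 in each direction, compared with 12.1% of all genes higher, 5.89% lower and 18% in either direction. *Pmaip1* fell by 0.74 (SE 0.167, edgeR adjusted p = 0.00336), and *Bak1* fell by 0.18 (SE 0.0523, adjusted p = 0.0164). *Bid* rose by 0.33 (SE 0.105, adjusted p = 0.0330) and *Bcl2l1* by 0.26 (SE 0.0898, adjusted p = 0.0490). All 8 *Bcl2l1* libraries at day 21 (92.9 to 99.7) lay above the 8 at day 14 (70.3 to 91.0). *Bcl2l1* was the only member without overlap between these days, and 2.64% of the genes examined had no overlap in either direction. In WT alone, *Pmaip1* was the only member called (adjusted p = 0.0301), where 8.45% of all genes were called. In Het alone, edgeR called none (4.74% of all genes), with 2 of 10 at an unadjusted p under 0.05. With the replicate block, *Bcl2l11* was called higher as well (adjusted p = 0.0362). Without replicate 2 only *Pmaip1* was called by edgeR, without replicate 3 only *Bak1*, and without replicate 4 none, with 4, 5 and 3 members at an unadjusted p under 0.05. Calls over all genes ranged from 1325 to 6142 across the fits without a replicate number, with 6142 in the fit without replicate 1.

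Genes that act with these 10 were examined as lists, each read at days 14 and 21 in Het against WT. Of 15 other BCL2 family genes, 10 could be tested, of which 2 were higher and 1 lower, with a median log2 fold change of -0.04. *Bcl2a1b*, a survival gene of blood cells, was higher by 1.41 (SE 0.302, edgeR adjusted p = 0.00505). Its level rose from 0.110 to 0.514 in WT and 0.356 to 1.36 in Het at day 8 to 12.04 to 17.9 and 22.97 to 42.9 at day 21, and its day 8 values rest on 3 to 37 counts. The macrophage marker sums given above moved in the same direction, 8 of the 10 markers were called higher in Het, and their part in this difference was not tested. *Bcl2a1a* and *Bcl2a1d* are near-identical copies of *Bcl2a1b*, so its counts are uncertain. *Bik*, a BH3-only gene whose protein sits at the ER, was higher by 0.99 (SE 0.280, adjusted p = 0.0212), at 1.36 to 4.77 in Het and 0.579 to 2.65 in WT over both days (12 to 129 counts). *Bcl2l2* (BCL-w), a survival gene, was lower, at -0.16 (SE 0.0551, adjusted p = 0.0488).

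Genes downstream of the mitochondria were read against the 15.2% of all genes called in this comparison. Of 15 apoptosome, mitochondrial factor and caspase genes, all tested, 1 was called, *Cycs* (cytochrome c), higher by 0.35 (adjusted p = 0.00329), with a list median of -0.07. Of 5 inhibitor of apoptosis genes, *Birc3* was higher by 0.29 and *Birc2* and *Birc6* were lower, at -0.30 and -0.22 (adjusted p = 0.0186, 0.0139 and 0.0234). None of 9 death receptor genes was called by edgeR (0, with 1 at an unadjusted p under 0.05). Of 13 partners of BCL2 proteins at the ER and mitochondria, *Usp9x*, a deubiquitinase that stabilizes MCL1, was lower at -0.26, and *Itpr1*, a calcium channel of the ER that BCL2 binds, at -0.28 (adjusted p = 0.0282 and 0.0392).

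Stress and FOXO regulators of BH3-only genes were the next list. Of 12 stress and FOXO regulators, 6 were higher in Het and 1 lower, compared with 7.15% of all genes higher and 8.01% lower. The median log2 fold change was 0.48 beside -0.05 over all genes. The paper had already reported *Atf5* and genes of the integrated stress response as higher in Het in these same cultures. The count and median of this list are therefore not independent of that report. *Trib3*, a pseudokinase induced by ATF4 and CHOP, was higher by 2.78 (edgeR adjusted p = 2.07e-10), *Ddit3* by 1.201 (4.08e-07) and *Ppp1r15a*, the phosphatase subunit that ends eIF2α phosphorylation, by 0.70 (0.000174). *Atf3* was higher by 0.99 (0.00134). *Foxo1*, which controls *Bcl2l11*, was lower at -0.66 (adjusted p = 0.00404), and is named, after its value was seen, as the single lower call. *Ddit3* levels were 58.1 to 109 in Het and 36.1 to 42.8 in WT at day 14, and 79.9 to 101 and 38.7 to 43.7 at day 21, so the groups did not overlap on either day. At day 8 they were 18.9 to 29.8 and 21.0 to 26.6. *Trib3*, *Ddit3* and *Ppp1r15a* were also the 3 list members called for a difference between the late and the day 8 effect, at 2.18, 1.201 and 0.85 (adjusted p = 0.000495, 0.00478 and 0.0473). Of 16 p53 pathway genes, 3 were higher in Het, *Pmaip1*, *Trp53* (0.19, adjusted p = 0.0183) and the cell cycle inhibitor *Cdkn1a* (0.42, adjusted p = 0.0236), with a list median of 0.03. The p53 list includes the members *Pmaip1*, *Bbc3* and *Bax*. At day 8, none of the genes of these 7 lists was called by edgeR, in a comparison that called 0.631% of all genes. An unadjusted p under 0.05 was seen in 2 of 10 other family genes, 1 of 16 p53 genes (*Pmaip1*), 3 of 12 regulators and 0 in each of the remaining 4 lists.

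Over time, the counts in the same lists stand beside 58.3% of all genes called (40.9% higher and 17.4% lower). From day 8 to days 14 and 21, 9 of the 10 testable family genes rose and 1 fell, and those with the smallest adjusted p were *Bcl2a1b* (4.78), *Bnip3l* (1.05), *Bcl2l2* (0.52) and *Bik* (3.07), with a list median of 1.17. *Bnip3l* encodes a receptor for the removal of mitochondria. Of the regulators, 10 of 12 rose and 1 fell, among them *Trib3* (3.43), *Atf3* (3.60), *Chac1* (2.86) and *Ddit3* (1.39). Of the apoptosome and caspase genes, 4 rose and 7 fell, with *Endog* and *Casp9* higher by 0.48 and 0.41 and *Cycs* and *Aifm1* lower, at -0.39 and -0.30. Inhibitor of apoptosis genes rose in 3 cases and fell in 1, that of *Birc5* (survivin), which is made in dividing cells (-0.88). Death receptor genes rose in 3 cases and fell in 2, with *Cflar*, the inhibitor of caspase 8, at 0.69 and the TRAIL receptor *Tnfrsf10b* at -1.09. The p53 list, which includes the members *Bbc3*, *Pmaip1* and *Bax* counted above, split into 6 higher and 6 lower. The partner list split into 4 and 3.

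From day 14 to day 21, when 18% of all genes were called, the lists gave the following calls. *Bmf*, a BH3-only gene whose protein rests on the cytoskeleton, rose by 0.80 (edgeR adjusted p = 0.000739), and *Bcl2a1b* rose by 1.52, as the 2 of 10 family genes called. *Cycs* and *Trp53* fell by 0.37 and 0.22 (adjusted p = 0.00105 and 0.00490), and *Casp9* and *Cflar* rose by 0.29 and 0.30. The remaining lists gave 1 higher and 1 lower of 5 inhibitor of apoptosis genes, 2 higher of 9 death receptor genes, 1 higher of 12 regulators (*Atf3*, 0.75) and 2 higher and 2 lower of 13 partners.

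The genes whose level followed each called member most closely over the 24 libraries were taken from 14889 genes averaging 50 counts or more, by Pearson's r of the log2 level. For *Mcl1* these were *Nceh1* (0.97), *Lhfpl2* (0.95) and *Znrf2* (0.95). For *Bak1* they were *Stip1* (0.97), *Ggnbp1* (0.97) and *Tpm3* (0.96), of which *Ggnbp1* is the gene that overlaps *Bak1*. For *Pmaip1* they were *Wdr3* (0.89), *Yrdc* (0.89) and *Snhg5* (0.88). These correlations are descriptions over libraries that share day, genotype and replicate number, and each includes the change with time in culture.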

How the data were processed

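Each deposited file held the raw read counts of 1 library, as made by the authors without normalization. Per the submitters' processing notes, cutadapt 2.5, STAR 2.73a, Subread and featureCounts 1.6.4 were used with build mm10; the strand rule and the treatment of reads matching several genes are not given in the sources used here. Libraries were Illumina TruSeq without molecular identifiers, so counts include PCR duplicates. Groups came from the genotype and day in the sample titles. Of 55335 gene entries, 54587 matched GENCODE M21 (GRCm38), which gave positions, exon lengths and overlaps. Counts were tested with edgeR 4.0.16 (glmQLFit and glmQLFTest, R 4.3.3) in one fit of 6 genotype-by-day groups, with the housekeeping geometric mean as library scale, filterByExpr and Benjamini-Hochberg adjustment at 0.05 over 20434 genes. The fit was also run on simulated counts. These had housekeeping genes without random spread and no replicate effect, so they do not cover the differences between replicates seen here. Two-sided exact permutation tests were run on ratios of mean levels. Alternatives were TMM and total count scaling, scales without 1 housekeeping gene, other filters, DESeq2 1.42.0, a replicate block and left-out libraries. Replicate numbers were taken as pairing WT and Het: the 12 same-number correlations of deviations from group means were 0.256 to 0.749, although 0.00666 to 0.279 when replicates 2 to 4 were centred alone. Members and lists were chosen with earlier results of these data known. All 10 members were tested in every comparison, and members that were not called are not all named. Also named are, for each list, up to 4 called genes with the smallest adjusted p. For each member called at days 14 and 21, the 3 most correlated genes are named.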

Additional observations from a re-analysis of the deposited data

Results flagged for a closer look

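In 9 of 60 groups of 4 libraries (10 genes, 6 groups), 1 library lay apart from the other 3 by Dixon's criterion, which chance meets in about 1 of 20 groups. Of these, 7 were in replicate 1. In counts per 1000 housekeeping counts, replicate 1 was highest for *Bax* in WT at day 8 (259 against 183 to 188 in the others) and at day 14 (215 against 149 to 159). It was highest for *Bad* in WT at day 14 (101 against 77.0 to 80.0) and in Het at day 21 (99.4 against 77.5 to 79.9), and for *Bid* in Het at day 8 (33.1 against 27.1 to 27.7). *Bcl2l1* in Het at day 21 (99.7 against 92.9 to 93.8) and *Pmaip1* in WT at day 21 (23.5 against 15.98 to 16.9) completed the 7. The other 2 were replicate 3 of Het at day 14 for *Bcl2* (21.7 against 14.7 to 15.9) and replicate 2 of Het at day 21 for *Bbc3* (38.8 against 34.3 to 34.9).

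For *Pmaip1*, Het was higher than WT of the same replicate number in 0 of 4 pairs at day 8 and in 4 of 4 pairs at day 21. The difference between these 2 days was not tested on its own.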

How the results depend on the processing

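Of the 10 genes, 3 were called for Het against WT at days 14 and 21. With TMM scaling, total count scaling or DESeq2, 5 were called. The scale without *Sdha* gave 1, as did a minimum change of 20% and the exact permutation test with that minimum. Day 14 alone and day 21 alone gave 0 each. Leaving out a replicate number gave 0 to 5 (5 without replicate 1). At day 8 the single call became 0 in the fit of that day's libraries and 0 to 3 without a replicate number. For the difference between the effects, DESeq2 gave 1, and leaving out a replicate number 0 to 3. Between day 21 and day 14, 4 calls became 1 in WT alone, 0 in Het alone and 2 with the scale without *Sdha*, with no low-count filter or with the 20% minimum, and 0 to 6 without a replicate number. The causes were not tested. In replicate 1 alone, an alternative chosen after seeing the data, the late log2 ratios were -0.12 for *Mcl1* and -0.27 for *Pmaip1*. The replicate block gave 4, 1, 0, 10 and 5 calls in the 5 comparisons in place of 3, 1, 0, 10 and 4. Over all genes it moved the calls by more than 1.5 times in 3 comparisons: from 3098 to 5005, from 129 to 315, and from 35 to 67. Without a replicate number, calls over all genes ranged from 86 to 8236 at days 14 and 21, 0 to 3405 at day 8, 0 to 928 for the difference, 9559 to 13775 for the later days against day 8 and 1325 to 6142 for day 21 against day 14. Of 1080 member values under alternatives fixed in advance, none that was called turned its sign, and 51 that were called in neither fit did. Many of these alternatives differ from the main fit by a single library or by the scale. A call was lost in 33 of 340 values for Het against WT at days 14 and 21 and in 9 of 240 at day 8. It was lost in 16 of 170 for the later days against day 8 and in 24 of 180 for day 21 against day 14.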
